A study of Mus musculus with 7 samples.

Results

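The urea cycle genes were described in 7 mouse liver libraries, 3 from MDL-800 animals and 4 from control animals. The members are the 9 genes of the deposited table whose symbols are Cps1, Otc, Ass1, Asl, Arg1, Nags, Slc25a15, Slc25a13 and Car5a, of 54532 genes listed, and each symbol matched 1 row. Both groups are livers of old C57BL/6 mice, and the labels used here give neither sex, nor exact age, nor the dose or duration of MDL-800. The MDL-800 animals had a standard diet following supplementation with MDL-800, a small-molecule activator of the deacetylase SIRT6, and the control animals had a standard diet. The labels do not say that the libraries are of different animals. MDL-800 2 and control 1 held 3514 and 2173 reads of Y chromosome genes, and the other libraries held 0. Neither group can therefore be of a single animal, though whether every library is a separate animal is not stated. The p-values cover the spread between these libraries only, and the technical part of that spread is not known.

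The urea cycle turns ammonia, which is toxic, into urea, and its complete form is a property of hepatocytes, above all of those near the portal vein. The first steps run in mitochondria and the last steps in the cytosol, so carriers in the inner mitochondrial membrane move ornithine, citrulline and aspartate between the compartments. The rate follows the supply of ammonia and the level of N-acetylglutamate, the obligatory activator of carbamoyl phosphate synthetase.

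No urea cycle gene passed the test between MDL-800 and control livers, where the libraries of each group spread widely. Of the 9 members, 0 passed limma at an adjusted p under 0.05, beside 0% of 11394 genes tested, and 0 had an unadjusted p under 0.05, beside 553 (4.85%) of all tested genes. Of the 9, 5 had a log2 fold change above 0 and 4 below, beside 54.2% of tested genes above 0. The median log2 fold change of the members was 0.12, beside 0.02 over all tested genes, and it was -0.14 without MDL-800 2 and -0.02 without control 2. The FPKM ranges of MDL-800 and control livers overlapped for every member, so 0 of 9 were separate, beside 6.45% of tested genes. FPKM is a level in reads scaled to gene length and to the authors' denominator for the library, and fold changes were taken on the log2(FPKM + 1) scale. Together the 9 genes held 0.705% ± 0.174 of all recovered reads in MDL-800 livers (SD, n = 3) and 0.656% ± 0.140 in control livers (SD, n = 4).

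Several features of the libraries bear on these values. Whole reads recovered from FPKM summed to 17600066 to 19920469 per library. The ratio of that sum to the authors' denominator was 1.06, 1.28 and 1.09 in MDL-800 1, 2 and 3, against 1.25, 0.995, 1.24 and 1.22 in control 1, 2, 3 and 4. A lower ratio gives a lower FPKM for the same share of reads, so values with the summed reads as the denominator stand beside the deposited ones where they differ. MDL-800 2 and control 1 held 3514 and 2173 reads of 4 genes of the Y chromosome (Uty, Eif2s3y, Kdm5d and Ddx3y), and the other 5 libraries held 0. Xist, transcribed from the inactive X chromosome, reached up to 63.5 FPKM in 4 of these 5 libraries and was at 0 in control 3. In MDL-800 2 and control 1 Xist was at 0.01 FPKM. Summed hepatocyte markers ranged from 70368 to 77006 FPKM in MDL-800 livers and from 65360 to 98511 FPKM in control livers (9 of 10 listed symbols matched). The symbol without a match was Tf, and the deposited row named Trf was not part of the sum.

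Ass1 has a near-identical copy in the genome, and its sequence is shown because it limits what the Ass1 value can mean. Gm5424 (chromosome 10, 62071123 to 62072362, + strand) is annotated in the table as a processed pseudogene. It matched 1236 coding bases of Ass1 with 6 differences, an identity of 99.5%. Stretches of at least 50 identical bases covered 71.0% of the Ass1 coding transcript. The window of coding bases 340 to 429 of Ass1 and the matching window of Gm5424, from GENCODE M21 transcripts (GRCm38), differ at 2 bases, given in capitals.
Ass1: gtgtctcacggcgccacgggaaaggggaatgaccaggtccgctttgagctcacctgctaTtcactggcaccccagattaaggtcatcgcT
Gm5424: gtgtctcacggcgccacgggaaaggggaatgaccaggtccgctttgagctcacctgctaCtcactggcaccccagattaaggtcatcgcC

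Gm5424 had 229.8, 447 and 319 FPKM in MDL-800 1, 2 and 3, against 291, 199, 252 and 394 FPKM in control 1, 2, 3 and 4. No source used here says how reads that match both loci were assigned, so reads of the pair are uncertain at either locus. The level of Gm5424 was 43.0%, 37.0% and 42.7% of the Ass1 level in MDL-800 1, 2 and 3, against 35.7%, 36.2%, 34.6% and 33.1% in control 1, 2, 3 and 4. The 3 MDL-800 percentages lay above the 4 control percentages, a feature chosen after its values were seen and not tested. The sum of both levels averaged 1162 ± 454 FPKM in MDL-800 livers (SD, n = 3) and 1105 ± 353 FPKM in control livers (SD, n = 4).

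The promoters of Otc, Slc25a13 and Car5a are shown for 3 mitochondrial members described below. Otc is X-linked, and Car5a was lowest in control 4, where Asl was highest. Slc25a13 has an interval of the fold change without 0 in some of the fits given below, though it passed in none. RefSeq promoter windows (GRCm38.p6, 250 bases before to 50 after the start) matched 6 of 9 members. The windows were searched on both strands for TATAAA, the TATA box, found in 13.6% of 32851 windows of the same length. They were also searched for CCAAT, found in 37.4%. The last motif was TGACG, the core of a cAMP response element, found in 20.8%. Capitals mark matches, which did not overlap.
Otc, chrX:10252055-10252354, + strand: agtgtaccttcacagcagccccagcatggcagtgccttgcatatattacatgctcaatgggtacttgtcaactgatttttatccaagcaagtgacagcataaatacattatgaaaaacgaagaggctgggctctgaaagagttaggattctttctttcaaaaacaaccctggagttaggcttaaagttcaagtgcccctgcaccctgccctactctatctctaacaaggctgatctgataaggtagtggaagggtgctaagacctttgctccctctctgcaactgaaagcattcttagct
Slc25a13, chr6:6217124-6217423, - strand: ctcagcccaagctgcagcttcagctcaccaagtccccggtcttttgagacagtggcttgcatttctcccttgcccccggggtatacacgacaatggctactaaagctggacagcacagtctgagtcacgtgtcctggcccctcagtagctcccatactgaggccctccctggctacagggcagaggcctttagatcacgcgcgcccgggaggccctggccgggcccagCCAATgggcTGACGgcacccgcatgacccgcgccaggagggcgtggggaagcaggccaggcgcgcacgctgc
Car5a, chr8:121944863-121945162, - strand: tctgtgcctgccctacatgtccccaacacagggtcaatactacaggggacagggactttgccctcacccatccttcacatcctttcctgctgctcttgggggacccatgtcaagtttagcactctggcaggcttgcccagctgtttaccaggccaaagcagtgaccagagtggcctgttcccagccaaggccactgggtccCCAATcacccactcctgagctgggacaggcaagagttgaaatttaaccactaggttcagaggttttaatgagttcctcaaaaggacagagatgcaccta

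The Otc window held none of these letters, that of Slc25a13 held 1 CCAAT and 1 TGACG, and that of Car5a held 1 CCAAT. The GC content was 44.3% for Otc, 65.0% for Slc25a13 and 53.7% for Car5a, beside a median of 52.7% over all windows. The Ass1 window was at 74.0%, and 4.44% of windows were higher.

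The supply of carbamoyl phosphate rests on Cps1, Nags and Car5a. Cps1 (chromosome 1, 67123026 to 67231259, + strand, coordinates as GRCm38 here and throughout) encodes carbamoyl phosphate synthetase 1, which joins ammonia and bicarbonate. It had 309.5, 737 and 431 FPKM in MDL-800 1, 2 and 3, against 409, 273, 441 and 536 FPKM in control 1, 2, 3 and 4. MDL-800 2 stood above all controls, and the other MDL-800 livers lay within the control range. The log2 fold change was 0.19 with a standard error of 0.35 and a 95% interval from -0.62 to 1.01 (limma adjusted p = 0.955), and it was -0.14 without MDL-800 2.

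Nags (chromosome 11, 102145513 to 102149477, + strand) encodes N-acetylglutamate synthase, which makes the activator of the Cps1 enzyme. It had 25.7, 31.1 and 22.4 FPKM in MDL-800 1, 2 and 3, against 32.4, 24.4, 33.2 and 33.9 FPKM in control 1, 2, 3 and 4. Control 2 was low among the controls and lay within the MDL-800 range. For Nags the log2 fold change was -0.22 with a standard error of 0.17 and an interval from -0.62 to 0.17 (limma adjusted p = 0.950). With the summed reads as the denominator, Nags was at 28.2, 28.3 and 23.9 FPKM in the MDL-800 livers, against 30.1, 28.5, 31.1 and 32.4 FPKM in the controls. On that scale the groups did not overlap, with MDL-800 2 just below control 2, as held for 8.65% of tested genes, and the limma adjusted p was 0.774. Nags shares 443 exon bases with Gm11586 on the opposite strand, which reached at most 1.25 FPKM.

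Car5a (chromosome 8, 121916126 to 121944904, - strand) encodes the mitochondrial carbonic anhydrase that supplies bicarbonate to Cps1. It had 38.2, 62.1 and 40.7 FPKM in MDL-800 1, 2 and 3, against 43.6, 32.6, 54.4 and 28.7 FPKM in control 1, 2, 3 and 4. MDL-800 2 was the highest library and control 4 the lowest, with the remaining livers between them. For Car5a the log2 fold change was 0.24 with a standard error of 0.27 and an interval from -0.39 to 0.88 (limma adjusted p = 0.950), and it was 0.03 without MDL-800 2. Car5a shares 314 exon bases with BC048644 on the opposite strand, which reached at most 0.789 FPKM, and a repeat in its transcript matches short stretches of many other genes.

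Otc and the ornithine carrier handle the step that makes citrulline. Otc (chromosome X, 10252305 to 10321024, + strand) encodes ornithine transcarbamylase, which joins ornithine with carbamoyl phosphate. It had 106, 154 and 124 FPKM in MDL-800 1, 2 and 3, against 143, 86.8, 123 and 120.3 FPKM in control 1, 2, 3 and 4. On deposited FPKM the highest values were those of MDL-800 2 and control 1, both with Y-linked reads, and control 2 was lowest. Scaled to the summed reads, MDL-800 3, without Y-linked reads, was at 132.46 FPKM and control 1 at 132.44 FPKM. The log2 fold change was 0.12 with a standard error of 0.21 and an interval from -0.38 to 0.62 (limma adjusted p = 0.957).

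Slc25a15 (chromosome 8, 22375551 to 22398597, - strand) encodes the carrier that exchanges cytosolic ornithine for citrulline. It had 55.8, 72.4 and 56.9 FPKM in MDL-800 1, 2 and 3, against 59.8, 40.4, 73.6 and 51.5 FPKM in control 1, 2, 3 and 4. All MDL-800 values lay between control 2 and control 3. For Slc25a15 the log2 fold change was 0.15 with a standard error of 0.22 and an interval from -0.37 to 0.67 (limma adjusted p = 0.951), and it was 0.006 without control 2 and 0.03 without MDL-800 2.

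Slc25a13 encodes citrin, the carrier that sends aspartate out of mitochondria in exchange for glutamate. Slc25a13 (chromosome 6, 6041218 to 6217173, - strand) had 57.2, 83.6 and 52.3 FPKM in MDL-800 1, 2 and 3, against 67.4, 36.5, 48.3 and 45.1 FPKM in control 1, 2, 3 and 4. Control 1 was the only control that reached into the MDL-800 range. The log2 fold change was 0.38 with a standard error of 0.25 and an interval from -0.21 to 0.97 (limma adjusted p = 0.950). Without MDL-800 2 it was 0.18. Among the 5 livers without Y-linked reads, the MDL-800 values of 52.3 and 57.2 FPKM lay above the highest control, 48.3 FPKM, so 1 of 9 members was separate in that comparison of 2 against 3 libraries, beside 22.7% of tested genes. That highest control was control 3, where Xist was at 0 as well. The fit on those 5 libraries gave a log2 fold change of 0.34 (limma adjusted p = 0.924). With a term for Y-linked reads in the fit the log2 fold change was 0.33 with a standard error of 0.13 and an interval from 0.02 to 0.64, and it did not pass (limma adjusted p = 0.680). With voom on recovered reads it was 0.43 with an interval from 0.005 to 0.85, and it did not pass (limma voom adjusted p = 0.748).

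The cytosolic steps are those of Ass1, Asl and Arg1. Ass1 (chromosome 2, 31470207 to 31520672, + strand) encodes argininosuccinate synthase, which joins citrulline and aspartate. It had 535, 1209.9 and 746 FPKM in MDL-800 1, 2 and 3, against 815, 549, 729 and 1192 FPKM in control 1, 2, 3 and 4. MDL-800 livers held both the lowest and the highest value. For Ass1 the log2 fold change was -0.01 with a standard error of 0.35 and an interval from -0.84 to 0.82 (limma adjusted p = 0.997).

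Asl (chromosome 5, 130011258 to 130029247, - strand) encodes argininosuccinate lyase, which releases arginine and fumarate. It had 66.1, 109.8 and 80.2 FPKM in MDL-800 1, 2 and 3, against 89.3, 58.3, 103.8 and 169 FPKM in control 1, 2, 3 and 4. Control 4 stood far above the others, and the MDL-800 livers lay within the range of the remaining controls apart from MDL-800 2. The log2 fold change was -0.23 with a standard error of 0.36 and an interval from -1.08 to 0.62 (limma adjusted p = 0.951), and it was 0.03 without control 4.

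Arg1 (chromosome 10, 24915221 to 24927484, - strand) encodes liver arginase, which releases urea and returns ornithine. It had 571, 1009 and 807 FPKM in MDL-800 1, 2 and 3, against 859, 527, 788 and 1163 FPKM in control 1, 2, 3 and 4. Every MDL-800 value lay inside the control range. For Arg1 the log2 fold change was -0.05 with a standard error of 0.31 and an interval from -0.78 to 0.68 (limma adjusted p = 0.985), and it was 0.13 without control 4 and 0.17 without MDL-800 1.

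**Figure D1:**
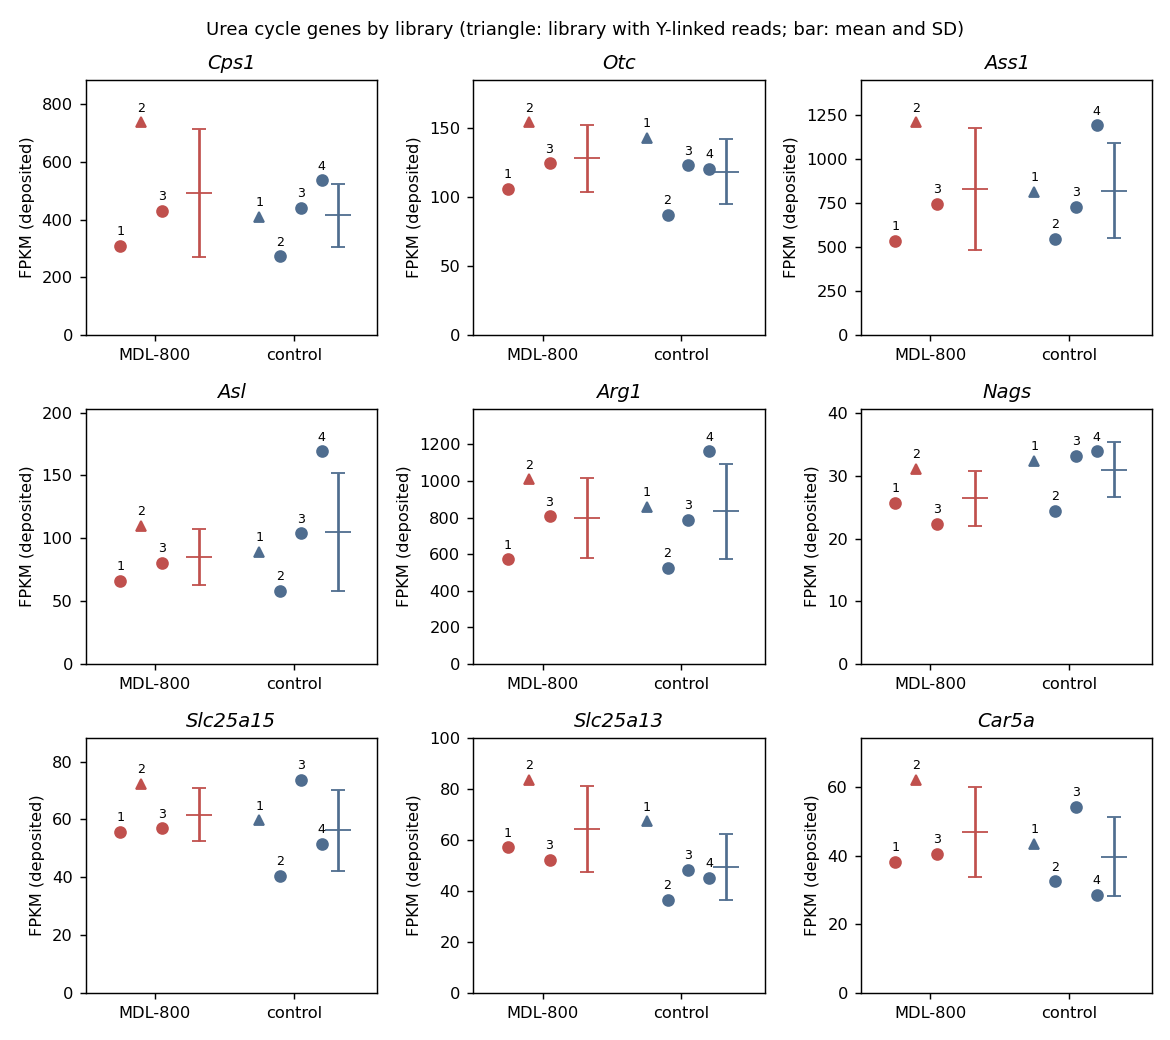
Deposited FPKM (vertical axis) of the 9 urea cycle genes in the MDL-800 livers (left, n = 3) and control livers (right, n = 4), with replicate numbers beside the points, triangles for libraries with Y-linked reads, and bars for the mean and SD. The groups overlap in every panel, and MDL-800 2 or control 4 is the highest library for 8 of 9 genes.

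**Figure D2:**
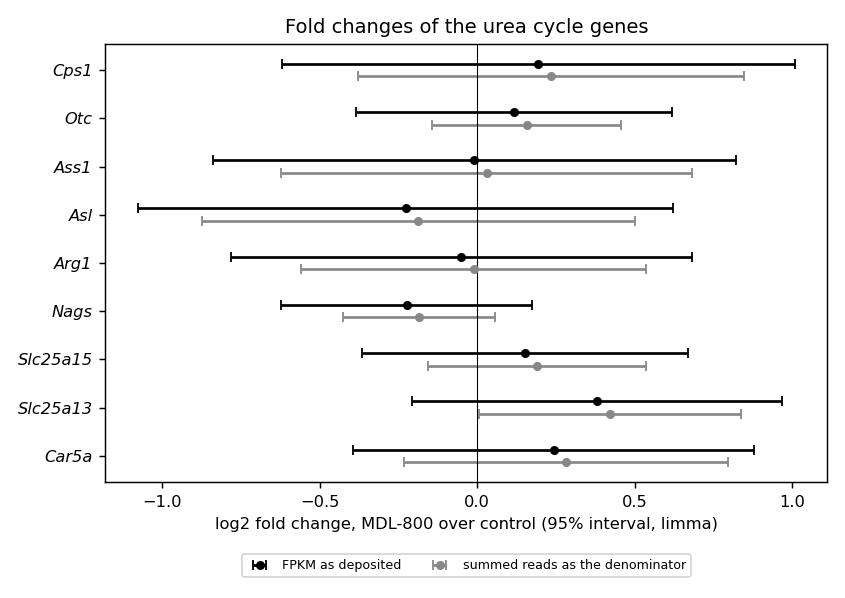
Log2 fold change of MDL-800 over control livers (horizontal axis) with its 95% interval from limma for each gene, on deposited FPKM (black) and with the summed reads as the denominator (grey). All 9 intervals hold 0 on deposited FPKM, and only that of Slc25a13 (0.42, from 0.01 to 0.84) leaves it out with summed reads, where the adjusted p was 0.728.

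The 9 genes differed widely in level, from 825 FPKM for Ass1 to 29.0 FPKM for Nags as the mean of 7 libraries. The order of these mean levels was Ass1, Arg1 (818 FPKM), Cps1 (448 FPKM), Otc (122 FPKM), Asl (96.7 FPKM), Slc25a15 (58.6 FPKM), Slc25a13 (55.8 FPKM), Car5a (42.9 FPKM) and Nags. Arg1 exceeded Cps1, Cps1 exceeded Otc and Asl exceeded Slc25a15 in 7 of 7 libraries. Other neighbours were not apart in every library: Ass1 exceeded Arg1 in 3 of 7 libraries and Slc25a15 exceeded Slc25a13 in 4 of 7. Otc exceeded Asl, Slc25a13 exceeded Car5a and Car5a exceeded Nags in 6 of 7 libraries each. Ass1 and Arg1 were the 72nd and 74th highest of 11394 tested genes by mean FPKM, and Cps1 the 136th.

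The length used for FPKM bears on that order. The table's gene length was 4831 bases for Asl and 4241 for Otc, while the longest coding transcripts in GENCODE M21 have 2413 and 2997 bases. Per length of that transcript the mean levels were 194 FPKM for Asl and 173 FPKM for Otc, which turns their order, as it does for Arg1 (1233 FPKM) and Ass1 (1174 FPKM). Cps1 has 5555 bases by either measure. The level of Cps1 over that of Otc was 2.93, 4.79 and 3.47 in MDL-800 1, 2 and 3, against 2.86, 3.15, 3.59 and 4.46 in control 1, 2, 3 and 4, so these groups overlapped as well.

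Most of the members varied more between libraries than the middle of the genes at 20 FPKM or more. Their median coefficient of variation over the 7 libraries was 27.6%, beside 19.0% for the 2248 genes whose mean level reached 20 FPKM, and 7 of 9 lay above that value. Asl varied most (38.3%), and Otc (18.1%) and Nags (16.3%) lay below it. With the summed reads as the denominator the members' median was 21.8%, from 9.39% to 32.9%, beside 16.3% for the same 2248 genes, and 6 of 9 lay above. Control 2 was the lowest library for 6 of 9 members, and 47.0% of those 2248 genes were also lowest there. With the summed reads as the denominator control 2 was still lowest for 6 of 9 members, while 14.1% of such genes were lowest there. MDL-800 2 was the highest library for 5 of 9 members, beside 29.7% of such genes. Scaled to the summed reads it was highest for 4 of 9, beside 15.8%, and control 4 for 4 of 9, beside 8.10%. In these bulk libraries fewer cells of a type and less RNA per cell cannot be told apart. In control 2 the summed markers of Kupffer cells and macrophages reached 1429 FPKM, those of neutrophils 288 FPKM and those of erythroid cells 807 FPKM, the highest of the 7 libraries in each case. In the other libraries these sums were 180 to 624, 11.6 to 81.5 and 126 to 198 FPKM, and their part in the low urea cycle values of control 2 was not tested.

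**Figure D3:**
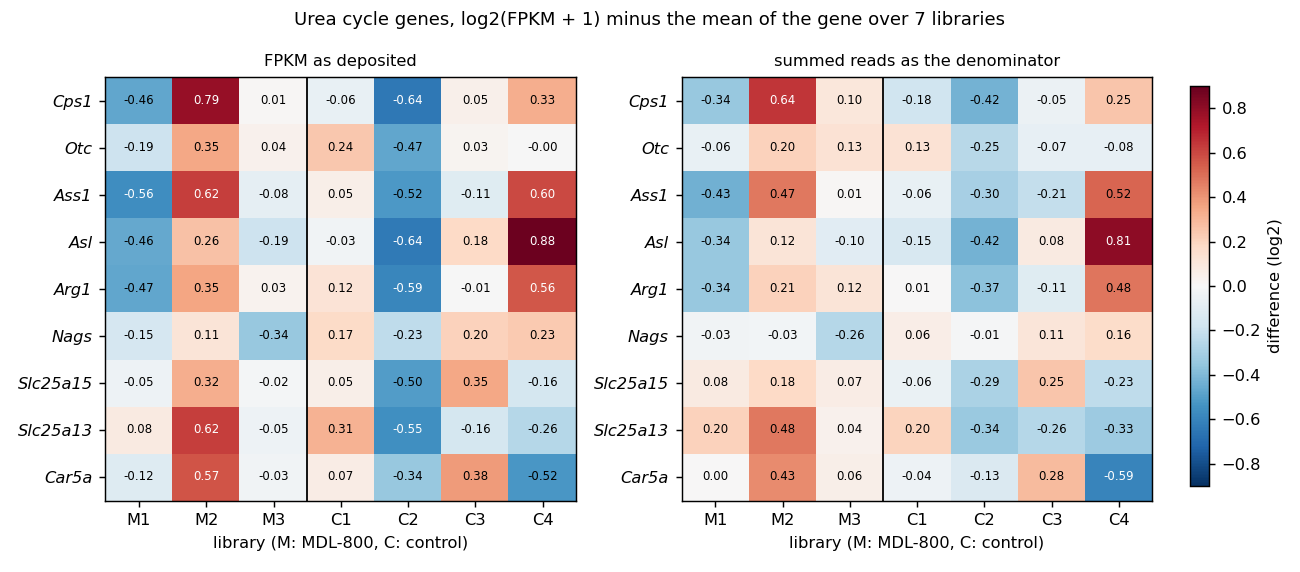
Level of each gene in each library, as log2(FPKM + 1) minus the mean of that gene over 7 libraries (colour and printed value), with MDL-800 libraries left of control libraries, from deposited FPKM (left) and with the summed reads as the denominator (right). Control 2 is below the gene's mean for 9 of 9 genes on both scales, and in control 4 Asl is at 0.88 while Car5a is at -0.52 on the deposited scale.

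Control 4 differed from the other livers in how the members stood to each other. Its 3 cytosolic members averaged 0.68 above their own means on the log2 scale, and its 6 mitochondrial members -0.06. The difference between these averages was -0.35, -0.05 and -0.01 in MDL-800 1, 2 and 3, against -0.09, -0.13, -0.12 and 0.74 in control 1, 2, 3 and 4. The mitochondrial members did not move together in control 4. Cps1 (0.33) and Nags (0.23) stood above their means there, like the cytosolic members. Car5a (-0.52), Slc25a13 (-0.26), Slc25a15 (-0.16) and Otc (-0.003) stood below. The split by compartment and the ratio of Asl to Car5a were chosen after the values were seen, and neither was tested. The level of Asl over that of Car5a was 1.73, 1.77 and 1.97 in MDL-800 1, 2 and 3, against 2.05, 1.79, 1.91 and 5.90 in control 1, 2, 3 and 4. Control 4 also held the lowest summed endothelial markers (13.1 FPKM, beside 19.9 to 40.1 FPKM elsewhere) and the lowest stellate cell markers (18.7 FPKM, beside 36.8 to 61.3 FPKM). Its summed markers of hepatocytes (98511 FPKM, beside 65360 to 82953 FPKM elsewhere) and of lymphocytes (39.5 FPKM, beside 2.55 to 16.5 FPKM) were the highest. These sums are on deposited FPKM. Alb, on the hepatocyte list, held 12.0% of recovered reads in control 4, beside 6.67% to 10.2% elsewhere, so it weighs on that sum. The part of these marker sums in the pattern was not tested.

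**Figure D4:**
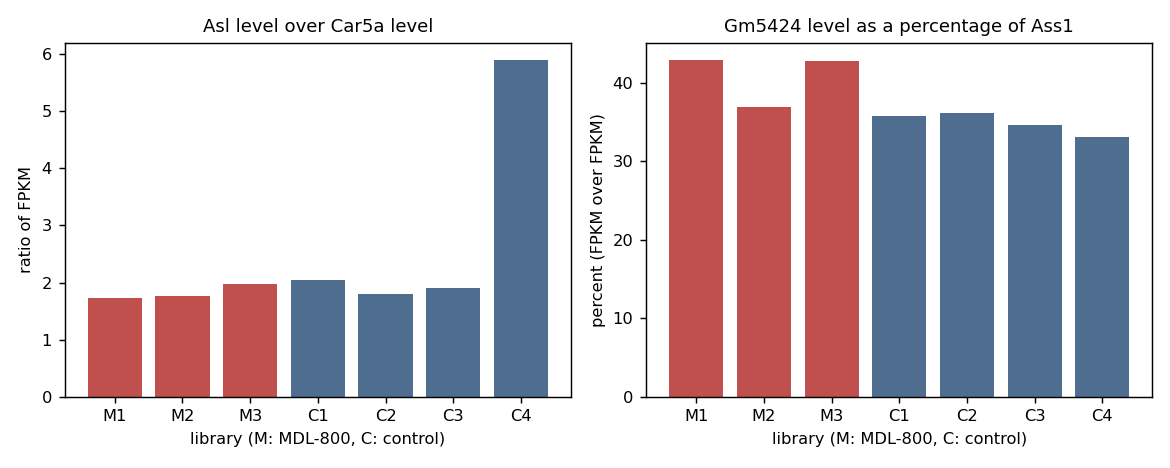
Level of Asl over that of Car5a (left, ratio of FPKM) and level of Gm5424 as a percentage of that of Ass1 (right) in each library, with MDL-800 libraries (M1 to M3) left of control libraries (C1 to C4). Control 4 stands at 5.90 on the left, beside 1.73 to 2.05 elsewhere, and on the right the MDL-800 libraries lie between 37.0% and 43.0% and the controls between 33.1% and 36.2%.

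The likeness of 2 profiles over the 7 libraries was measured as the root mean square difference between centred log2(FPKM + 1) values. Ass1 and Arg1 were closest (0.13), Asl was closest to Arg1 (0.18), and Otc and Slc25a15 were closest to each other (0.16). The points share the libraries and their denominators. Cps1 had Ass1 as its closest member (0.16). Asl and Car5a were farthest apart (0.58). Among 3762 other genes whose mean level reached 10 FPKM, the closest to the mean profile of the members were Hgd (0.06), which encodes an enzyme of tyrosine breakdown, Dgcr6 (0.08), Gstk1 (0.09), Man2a1 (0.09) and Selenoo (0.09). The closest to Cps1 were Gm5424 (0.14), Tob1 (0.15), Gnmt (0.16), a glycine methyltransferase gene, Aass (0.17), which encodes an enzyme of lysine breakdown, and Hgd (0.18). Gm5424 is the near-identical copy of Ass1, and reads of that pair are uncertain at either locus. Whether the place of Gm5424 is separate from that of Ass1, the member closest to Cps1, was not tested.

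The libraries with Y-linked reads were also compared with the others, with treatment as a second term. The others include control 3, where Xist was at 0. Of the 9 members, 0 passed limma, beside 2.42% of tested genes, and 9 of 9 differences were above 0, beside 61.1% of tested genes. With voom on recovered reads, which uses the summed reads, 8 of 9 were above 0, beside 38.8%, and all but that of Slc25a13 (0.44) moved by over 1.5 times, among them Otc to 0.22, Cps1 to 0.30, Arg1 to 0.15, Slc25a15 to 0.07 and Nags to 0.04. Slc25a13 came nearest, with a log2 difference of 0.62, a standard error of 0.14 and an adjusted p of 0.0842. These 2 livers have the highest ratios of reads to denominator. On deposited FPKM the values of Slc25a13 and Otc in both lay above those of the other 5, so 2 of 9 members did not overlap, no larger a share than the 32.8% of tested genes. On the summed-read scale 0 of 9 were separate, beside 26.9%, since Slc25a13 was at 62.63 FPKM in MDL-800 1 and 62.51 FPKM in control 1. For Otc the lower of that pair was 143 FPKM, beside a highest deposited value of 124 FPKM in the remaining livers (log2 difference 0.41, standard error 0.18, limma adjusted p = 0.236). These are 2 libraries set apart by their reads, not a group of the study, and the number of genes that passed, 276, was 38 when control 1 was left out and 82, 84 and 93 when MDL-800 1, 2 and 3 were.

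Genes around the cycle were read from 8 lists of 85 distinct symbols, of which 66 were tested. None passed limma between MDL-800 and control livers (0 of 66, beside 0% of all tested genes). Of the 66, 39 were above 0 and 27 below, beside 54.2% of all tested genes above 0. The direction counts of each list below stand beside that share. The groups did not overlap for 2 of them, Glud1 and Slc25a11, or 3.03%, beside 6.45% of tested genes. Glud1, which encodes the glutamate dehydrogenase that releases ammonia in mitochondria, had 454, 419.97 and 408 FPKM in MDL-800 1, 2 and 3, against 342, 322, 356 and 306 FPKM in control 1, 2, 3 and 4. Its log2 fold change was 0.37 with a standard error of 0.13 (limma adjusted p = 0.950). Slc25a11, the oxoglutarate carrier gene of the malate-aspartate shuttle, averaged 44.4 ± 2.74 FPKM in MDL-800 livers (SD, n = 3) and 36.2 ± 2.42 FPKM in control livers (SD, n = 4), a log2 fold change of 0.29.

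Among 9 tested genes of ammonia and glutamate handling, 7 were above 0, with a median of 0.20, beside 54.2% of all tested genes above 0. Besides Glud1 the smallest p-values were those of Gpt2, an alanine aminotransferase gene, with a log2 fold change of 0.56, and Adssl1 with 0.21, while Glul, glutamine synthetase, was at 0.04. Of 8 genes of ornithine, arginine and proline use, 6 were above 0. Oat, ornithine aminotransferase, had 0.37, Agmat 0.17, Aldh4a1 0.16 and Gamt -0.01. Of 11 carrier and channel genes, 6 were above 0. The cationic amino acid transporter gene Slc7a2 averaged 56.6 ± 25.9 FPKM in MDL-800 livers (SD, n = 3) and 30.7 ± 17.9 FPKM in control livers (SD, n = 4). The amino acid transporter genes Slc38a4 and Slc38a3 had log2 fold changes of 0.56 and -0.20.

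Mdh1, Fh1 and Mdh2, which return fumarate to oxaloacetate, had 0.12, 0.09 and 0.02. Of 5 other carbonic anhydrase genes, 3 were above 0, and Car3, Car8 and Car1 were at 1.22, 0.29 and -0.38. Car3 ranged from 87.1 FPKM in control 4 to 1968 FPKM in MDL-800 2. Of 14 regulators, 8 were above 0. Cebpa and Hnf4a, transcription factor genes with known roles in urea cycle expression, were at 0.27 and -0.06, Ppargc1a at 0.25 and Foxa2 at -0.28. Sirt3, whose product deacetylates Otc protein, was at 0.40, and it was 1 gene of these lists that passed in the libraries with Y-linked reads (log2 difference 0.79, limma adjusted p = 0.0447). The other, among the 66 tested genes of the lists, was Cyp2e1 (log2 difference 1.28, limma adjusted p = 0.0417). Over all tested genes 2.42% passed that comparison. Both differences are on deposited FPKM, and the libraries with Y-linked reads have the highest ratios of reads to denominator.

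The lists of liver zones had medians of -0.15 for 10 periportal genes and -0.07 for 11 pericentral genes, with 4 above 0 in each. Of the periportal list, Hsd17b13 was at 0.94, Igfbp2 at -0.62, Hal, which encodes histidine ammonia lyase, at -0.28 and Pck1 at -0.22. Of the pericentral list, Tbx3 was at -0.48, Lect2 at 0.23, Cyp2e1 at 0.32 and Rgn at -0.04. None of these log2 fold changes passed limma (lowest adjusted p on either list 0.950).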

How the data were processed

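Liver RNA in 3 MDL-800 and 4 control libraries was measured by RNA-seq. Per the labels' protocols, cDNA came from lysed liver by a low-input SMARTer kit, and after amplification and sonication an NEBNext DNA kit gave the libraries. No strand marking is stated, so reads of overlapping genes on opposite strands cannot be told apart. The authors deposited 1 table of FPKM per gene. The tools named, per the submitters' processing notes, are Cufflinks 2.2.1, Bowtie2 2.1.0 and TopHat2 2.0.14, with build mm9 and no roles. No source used here says how reads were counted. Yet the coordinates in the table are GRCm38, since 53756 of the 54409 identifiers also in GENCODE M21 match it in chromosome and start.

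Multiplying FPKM by gene length gave whole numbers of 1 step per library for 100% of nonzero values (within 0.01), from which reads were recovered. The 11394 genes whose mean reached 1 FPKM were tested as log2(FPKM + 1) with limma 3.58.1 in R 4.3.3 (trend, two-sided), with Benjamini-Hochberg adjustment over all of them and a threshold of 0.05. The alternatives were a pseudocount of 0.1, no filter, a minimum mean of 5 FPKM, median scaling, quantile normalization, summed reads as the denominator, array weights, a term for Y-linked reads (summed FPKM of 4 genes above 1), the libraries without them, a replicate block and leaving out each library. Limma voom on recovered reads was chosen after seeing the data. The fit was tested on simulated data in which each gene was drawn independently. That setting leaves out deviations that libraries share across genes, so it does not test the fit under them. Plots were drawn with matplotlib 3.10.9.

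The members and lists were chosen with earlier results of these data known. All 9 members are named. Of each related list, the 3 tested genes with the smallest p and the 2 with the highest mean are named. Counting error only is covered by the reads: Car5a, the member with the fewest, had 566 to 1293 reads per library.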

Additional observations from a re-analysis of the deposited data

Results flagged for a closer look

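In the group of 4 controls, a control was set apart when its gap to the nearest other control, as a share of the range, exceeded Dixon's 95% critical value. This held for 6 of 45 quantities, and chance flags about 1 in 20. The quantities share the same 4 controls, so the flags are not independent and their count can stray further from that rate. The compartment split, the ratio of Asl to Car5a and the Gm5424 percentage, chosen after their values were seen, were left out. The related genes stayed in, though each was named for its p or mean level in these data. Nags was at 24.4 FPKM in control 2, far below the other controls. With the summed reads as the denominator Nags no longer stood apart, and Slc25a13 did, at 62.5 FPKM in control 1. Gpt2 (39.6 FPKM) and Hal (67.4 FPKM) were also far below the other controls in control 2. Oat was at 476 FPKM in control 4, Aldh4a1 at 66.9 FPKM in control 3 and Cyp2e1 at 4381 FPKM in control 1, which holds Y-linked reads, each far above the other controls.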

How the results depend on the processing

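Over 18 alternatives the 9 fold changes gave 162 values, of which 143 kept their direction, and 0 members passed in any (lowest adjusted p 0.596). Nags stayed below 0, and Slc25a15, Slc25a13 and Car5a above 0, in all of them. Leaving out each library gave -0.34 to -0.12 for Nags, 0.006 to 0.29 for Slc25a15, 0.18 to 0.54 for Slc25a13, 0.03 to 0.41 for Car5a, -0.14 to 0.48 for Cps1, -0.0236 to 0.25 for Otc, -0.32 to 0.27 for Ass1, -0.47 to 0.0344 for Asl and -0.25 to 0.17 for Arg1. Cps1 turned to -0.12 with array weights and to -0.14 in the 5 libraries without Y-linked reads. Ass1 turned to 0.0672 and Arg1 to 0.0658 with quantile normalization, and Ass1 to 0.0307 with summed reads and to 0.0292 with voom. Asl turned to -0.0006 by Y-linked reads with voom. The median of the members was -0.14 to 0.25 when a library was left out, -0.12 with array weights and -0.14 in the libraries without Y-linked reads. The causes were not tested. The number of genes passing between MDL-800 and control livers ran from 0 to 1 when a library was left out, with 1 without MDL-800 1 and 1 without control 1. By Y-linked reads, 276 genes passed, 189 with voom and 38 to 409 when a library was left out. The unadjusted count of 553 genes was 755 with voom, 1083 without a filter, 305 with a minimum mean of 5 FPKM and 274 to 948 when a library was left out.

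Same-numbered libraries did not deviate together (correlations across genes of -0.59, -0.55 and 0.06). MDL-800 2 and control 1, both with Y-linked reads, did (0.77). Deviations within a group sum to 0, so that likeness pulls the other correlations down. The check therefore cannot tell whether same-numbered libraries are paired, and the labels do not say so. The replicate block, which drops control 4, gave 0 genes and 190 at an unadjusted p under 0.05, with 0.19 for Ass1, 0.0344 for Asl and 0.13 for Arg1, the values without control 4. The count models planned for recovered reads were not run, and voom on the same recovered reads was run in their place. Whether depth, 566 reads or more per member and library, limits these comparisons was not tested.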
